A study of Mus musculus with 8 samples.

Results

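Hjurp and 51 other genes of the cell cycle and of the centromere were followed in whole mouse kidney. They were taken from the deposited gene table by symbol. All 52 were found among its 26893 genes, and 50 had enough reads to be tested, the exceptions being Bub1 and Cdc25c. Poly(A) RNA was sequenced from 4 kidney samples of WT C57BL/6 mice and 4 labelled as Tsc1/Foxi1-dKO, all at 45 days of age. The dKO mice combine loss of Tsc1, a brake on the mTORC1 growth pathway, with a Foxi1 knockout. Tsc1 is removed by a Cre under the Aqp2 promoter and so in principal cells of the collecting duct, whereas Foxi1 is the transcription factor that intercalated cells, the other main cell of that duct, depend on. Kidneys with the Tsc1 deletion alone were not analysed here, so the effects of the 2 deletions cannot be told apart. The genotype labels name a strain for WT only, so strain background cannot be told apart from the deletions either. The comparison asks whether genes of cell division stood at another level in the dKO kidney than in WT.

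HJURP is the chaperone that carries CENP-A, the histone H3 variant that marks centromeres, to chromatin after each division. A cell that divides first switches on cyclins and kinases of G1, then the MCM helicase and the enzymes that supply DNA building blocks, then the kinases, checkpoint proteins and spindle motors of mitosis. Most tubule cells of the adult kidney rest outside this cycle, and in whole-organ RNA fewer dividing cells and less RNA per dividing cell cannot be told apart.

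Hjurp was selected on its adjusted p in this comparison, and the genes it works with in dividing cells were set beside it with those values in view. The dKO against WT values of the members, and above all of Hjurp, are therefore given as a description. Levels within a gene are CPM, the normalised read count that edgeR gives for the scaled library size. Levels between genes are FPKM, which also divides by gene length. A log2 fold change above 0 means a higher level in dKO, and its standard error (SE) is that of edgeR's quasi-likelihood fit. A gene was called where the Benjamini-Hochberg adjusted p over all 15912 tested genes was under 0.05.

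Libraries held 14791687 to 24973213 counted reads, and a floor of 3 reads stood for 0.121 to 0.207 CPM, which covers counting error only. Some dKO libraries stood apart from their group. The library labelled dKO replicate 4 had Foxi1 at 45.9 CPM, above the 26.6 to 33.6 CPM of WT, whereas dKO replicates 1 to 3 had 1.33 to 1.56 CPM. The summed level of 10 intercalated-cell markers was 554 CPM in that library, 375 to 455 CPM in WT and 8.54 to 18.01 CPM in dKO replicates 1 to 3, where Hmx2 had no read. The genotype label of dKO replicate 4 is therefore in doubt, and the library was kept in the group as labelled. Replicate 1 of dKO was the only library with high Xist, at 11083 reads against 0 to 11 in the others, and it had the highest summed level of 7 principal-cell markers. The labels give no sex, and the fit had no term for it. Hjurp is given with and without these libraries, as are the members for which a value without them is named.

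Of the 50 tested members, Hjurp alone was called, and it was higher in dKO. Over all tested genes 2.28% were called, with 1.16% higher and 1.12% lower. None of the other 49 members was called by edgeR's quasi-likelihood test, the smallest adjusted p among them being 0.137. At an unadjusted p under 0.05 there were 9 of these 49, against 16.8% of all tested genes. DESeq2, which called 6.1% of all tested genes, also called none of them. The log2 fold changes of the 49 ran from -0.94 to 1.02, and 40 were within 0.5 of 0. There were 37 above 0 and 12 below, where 51.7% of all tested genes were above 0. Their median was 0.17, against 0.0091 over all tested genes. WT and dKO did not overlap for 5 members on the higher side, namely Hjurp, Bub1b, Mcm2, Mcm4 and Rrm1, and for 3 on the lower side, namely Cenpe, Mcm6 and Mcm7, against 6.06% of all tested genes in each direction.

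**Figure D1:**
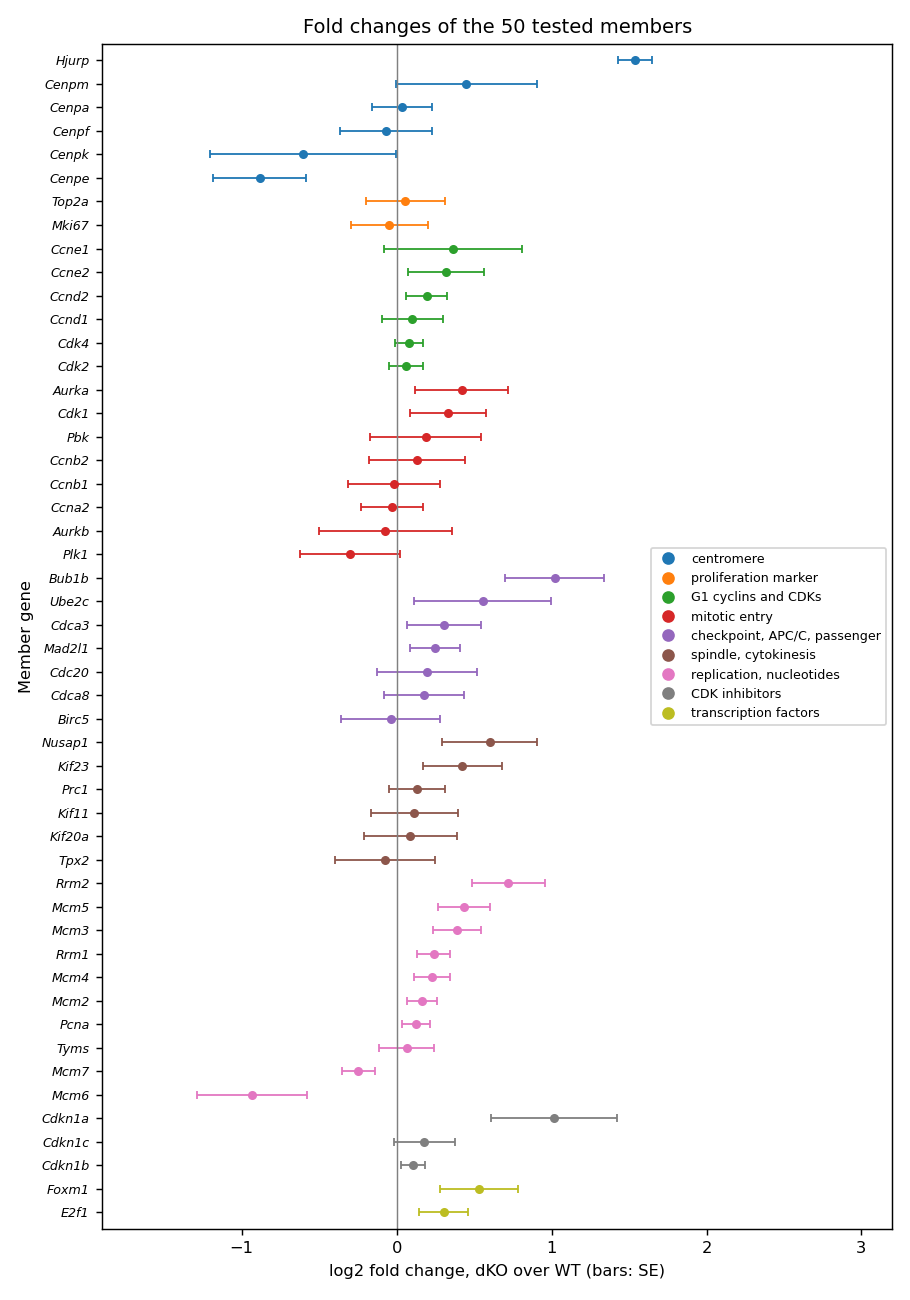
Log2 fold change of dKO over WT for the 50 tested members, with the SE as a bar, coloured and ordered by role. Hjurp sits at 1.54 with a narrow SE, and the other 49 members lie between -0.94 and 1.02.

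Promoters of many members share short sequence elements that are known to tie genes to the cell cycle. These are the CCAAT box, read by the factor NF-Y, the CHR element, read by the MuvB complexes that act in resting and in dividing cells, and the E2F site. The 250 bases before the start were read from RefSeq (GRCm38.p6) for 40 of the 52 members. The box was searched by its own letters on both strands, as were TTTGAA and its variant form TTTAAA for CHR, and TTTCCCGC, TTTCGCGC, TTTGCCGC or TTTGGCGC for E2F. In no member promoter did elements of different kinds overlap. The stretches below, 5′ to 3′ on the strand of each gene with every match in capitals, show Hjurp, the CENP-A gene that it serves, a mitotic enzyme and a mitotic cyclin rich in the first elements, and a helicase gene with E2F letters.
Hjurp: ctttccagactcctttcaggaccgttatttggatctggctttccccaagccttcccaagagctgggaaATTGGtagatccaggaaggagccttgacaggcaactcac
Cenpa: ATTGGcttcagacctttattctcATTGG
Top2a: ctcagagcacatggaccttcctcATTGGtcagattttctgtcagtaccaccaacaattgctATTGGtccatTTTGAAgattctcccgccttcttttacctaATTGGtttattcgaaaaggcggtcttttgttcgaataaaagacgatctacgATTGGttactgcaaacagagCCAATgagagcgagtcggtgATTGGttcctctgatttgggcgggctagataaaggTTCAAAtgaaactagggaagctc
Ccnb2: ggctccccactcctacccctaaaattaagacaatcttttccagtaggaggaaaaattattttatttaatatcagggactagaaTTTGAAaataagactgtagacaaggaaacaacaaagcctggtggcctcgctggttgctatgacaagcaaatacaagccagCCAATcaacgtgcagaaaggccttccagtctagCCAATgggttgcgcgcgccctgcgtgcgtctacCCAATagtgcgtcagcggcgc
Mcm6: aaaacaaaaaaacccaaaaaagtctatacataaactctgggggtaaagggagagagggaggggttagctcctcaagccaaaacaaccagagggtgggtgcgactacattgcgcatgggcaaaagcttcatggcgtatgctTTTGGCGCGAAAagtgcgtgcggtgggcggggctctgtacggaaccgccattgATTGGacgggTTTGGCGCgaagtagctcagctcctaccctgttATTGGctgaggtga

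The stretch of Hjurp is chr1:88277723-88277829, minus strand, which lies 144 to 250 bases before its RefSeq start. The nearer part of its window lies in annotated exons of Hjurp and of its neighbour Trpm8 and is not printed. The site of Cenpa is chr5:30666777-30666804, plus strand, and all 28 of its bases lie in an exon of 1 annotated Cenpa transcript that starts before the RefSeq start. The window of Cenpa also held 1 CHR match, 17 bases before the RefSeq start, which is not printed. The windows of Top2a (chr11:99024190-99024439), Ccnb2 (chr9:70421555-70421804) and Mcm6 (chr1:128359706-128359955) are on the minus strand and are printed whole. Hjurp held 1 CCAAT box, 182 bases before its start, and neither CHR nor E2F letters in its window. Top2a held 6 CCAAT boxes and 2 CHR matches, Ccnb2 held 3 and 1, and Mcm6 held 3 E2F matches, of which 2 overlap each other. CCAAT was found in 32 of the 40 member promoters (80.0%), against 37.5% of 27025 genes and 39.5% of 17491 protein-coding genes. CHR letters were found in 17 of the 40 member promoters (42.5%), against 28.1% of all genes. The share was 52.0% of the 25 centromere and mitotic members with a promoter. It was 23.1% of the 13 replication, G1 and transcription factor members, which is below that of all genes. E2F letters were found in 6 of the 40, against 2.16% of all genes. A match is a description of the letters and not a site that was shown to be used, and the members were picked for their roles, which these elements are known to accompany.

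Hjurp (ENSMUSG00000044783) lies on chromosome 1 from 88262471 to 88277633, on the minus strand, and the annotation gives it 7 transcripts. Reads were counted over the whole gene, so the level of each transcript is not given here. In WT replicates 1 to 4 Hjurp stood at 12.5, 10.1, 13.3 and 10.4 CPM. In dKO replicates 1 to 4 it stood at 33.6, 34.7, 30.7 and 35.5 CPM. Every dKO library was above every WT library by more than the whole range within either group. These levels rest on 184 to 225 reads per WT library and 600 to 763 reads per dKO library.

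The fold change of Hjurp was 1.54 on the log2 scale (SE 0.11), or 2.90-fold, with an adjusted p of 8.51e-05 in edgeR's quasi-likelihood test, the value by which it was chosen. The highest dKO value, 35.5 CPM, was in replicate 4, the library with Foxi1 above the WT range. Without dKO replicate 4, where 2.11% of all tested genes were called, the log2 fold change was 1.51. Without replicate 1 it was 1.54, and without both, where 3.19% of all tested genes were called, it was 1.50. Per length, Hjurp stood at 1.39 ± 0.18 FPKM in WT (SD, n = 4) and at 4.01 ± 0.24 FPKM in dKO (SD, n = 4). No other listed gene overlaps it.

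Markers of other cells also separated the groups. The summed level of 6 erythroid markers was 289 to 561 CPM in WT and 209 to 259 CPM in dKO, with all 5 tested markers below 0. The principal-cell markers summed to 515 to 621 CPM in WT and 648 to 1686 CPM in dKO, with all 6 tested markers above 0. None of these 11 markers was called. Among them Aqp2 was higher in every dKO library than in any WT library, at 225.3 to 314.3 CPM in WT and 339.4 to 1234.4 CPM in dKO. Its log2 fold change was 1.19 (SE 0.42). Hbb-bs, Hbb-bt, Hba-a1 and Alas2 were lower in every dKO library than in any WT library, against 6.06% of all tested genes in each direction. Lymphocyte markers were at 3.11 to 4.79 CPM in WT and 1.87 to 3.02 CPM in dKO, summed over 7, of which 3 were tested and none was called. The summed levels of the macrophage, endothelial and injury markers overlapped between the groups. Of the 9 tested injury markers 6 had a log2 fold change above 0 and 3 below, with a median of 0.47. Only 1 was called, Havcr1, which encodes kidney injury molecule KIM-1. It stood at 9.36, 12.7, 10.4 and 10.6 CPM in WT and at 0.796, 1.33, 2.54 and 0.771 CPM in dKO, and it fell by 2.96 on the log2 scale (SE 0.34, adjusted p = 0.00192, edgeR's quasi-likelihood test). Lyz2 of the macrophage list and Krt19 of the injury list were also higher in every dKO library than in any WT library. So was Slc5a2 of the 6 proximal tubule markers, against 6.06% of all tested genes. Lyz2, Krt19 and Slc5a2 had log2 fold changes of 0.46 (SE 0.15), 0.75 (SE 0.32) and 0.38 (SE 0.11), and none was called. The macrophage list had 5 tested markers above 0 and 2 below, and the proximal list had 3 above and 3 below. The part of these cells and markers in the level of Hjurp was not tested.

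**Figure D2:**
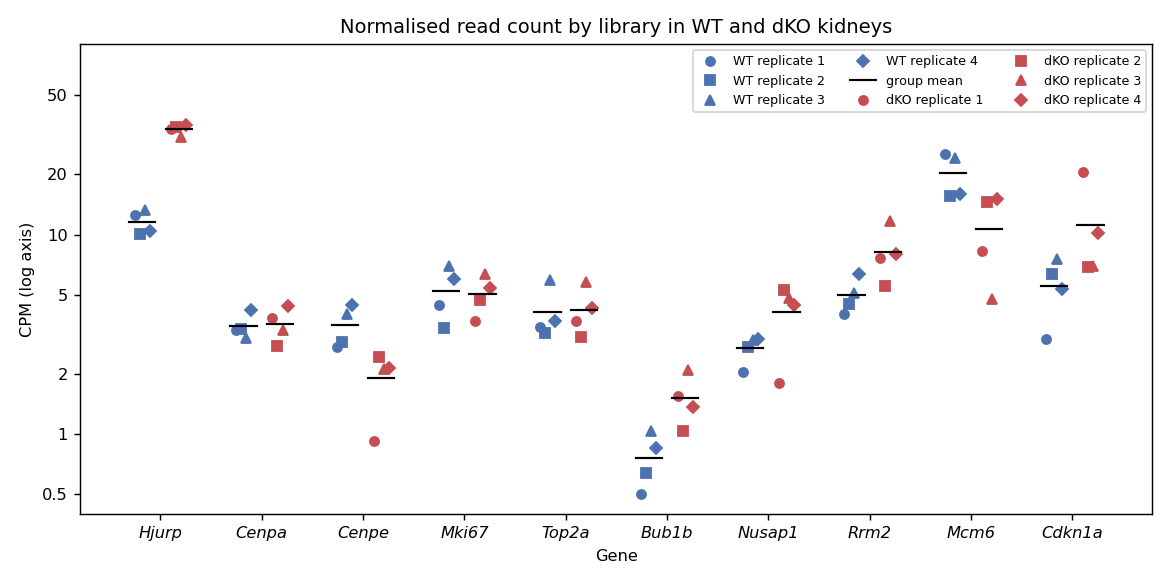
CPM on a log axis for 10 members in each library, WT in blue and dKO in red, with a marker shape per replicate and a line at the group mean. Hjurp is at 10.1 to 13.3 CPM in WT and 30.7 to 35.5 CPM in dKO, whereas Cenpa, Mki67 and Top2a overlap between the groups.

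The gene for the cargo of HJURP overlapped in full between the groups. Cenpa (chromosome 5, 30666777 to 30674830, plus strand) stood at 3.34, 3.37, 3.04 and 4.20 CPM in WT replicates 1 to 4. In dKO replicates 1 to 4 it stood at 3.81, 2.77, 3.34 and 4.40 CPM. Its lowest and its highest library were both dKO libraries, and its fold change was 0.04 (SE 0.19), or -0.18 without dKO replicates 1 and 4. The ratio of Hjurp to Cenpa in FPKM was 1.75 to 3.07 in the WT libraries and 5.67 to 8.79 in the dKO libraries. Hjurp was chosen by this comparison, so the ratio restates its difference and is no further result.

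The other centromere members did not follow a common direction. Cenpe, the kinetochore motor that brings chromosomes to the spindle equator, stood at 2.73, 2.89, 4.01 and 4.43 CPM in WT and at 0.929, 2.43, 2.13 and 2.15 CPM in dKO. Its dKO values were all below its WT values, and replicate 1 was far lower than the rest. The log2 fold change of -0.88 (SE 0.30) did not pass the test (adjusted p = 0.171, edgeR's quasi-likelihood test). Cenpf, Cenpk and Cenpm, which build or bind the kinetochore, had log2 fold changes of -0.07, -0.60 and 0.45, with SEs of 0.30, 0.60 and 0.46. Cenpk had no read in dKO replicate 4 and at most 0.898 CPM anywhere.

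Genes that load CENP-A together with Hjurp, and the inner kinetochore proteins that sit on it, were read as a list of 21 genes besides the members. Of these, 17 were tested and none was called by edgeR's quasi-likelihood test or by DESeq2. At an unadjusted p under 0.05 there was 1, Cenpu, at 0.88 (SE 0.36). Their median log2 fold change was -0.16, with 6 above 0 and 11 below. The MIS18 complex licenses centromeres before HJURP arrives. Its genes Mis18a and Oip5 (the MIS18 beta subunit) had log2 fold changes of -0.05 and -0.31, each within its SE of 0.21 and 0.41. Of 23 listed genes of the outer kinetochore and the checkpoint that reads it, 17 were tested and none was called, with a median of 0.01. Knl1, the scaffold that recruits the checkpoint, was the member of that list with the smallest p, at 1.08 (SE 0.32, adjusted p = 0.126, edgeR's quasi-likelihood test), and it was chosen after its values were seen.

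The standard markers of proliferation overlapped between the groups. Mki67, which coats mitotic chromosomes and is absent from resting cells, stood at 4.46, 3.42, 6.98 and 6.01 CPM in WT and at 3.67, 4.68, 6.36 and 5.39 CPM in dKO. Top2a, the topoisomerase that untangles sister chromatids, stood at 3.45, 3.21, 5.94 and 3.69 CPM in WT and at 3.67, 3.06, 5.76 and 4.29 CPM in dKO. Each had its highest value in WT replicate 3. Their log2 fold changes were -0.05 (SE 0.25) and 0.06 (SE 0.26), and both turned sign with single libraries. That of Mki67 was 0.12 without WT replicate 3 and -0.21 without WT replicate 2, and that of Top2a was 0.29 without WT replicate 3 and -0.14 without dKO replicate 3.

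Among the 6 G1 members, all log2 fold changes were above 0 and none was called. Ccnd1, the D-type cyclin that answers growth signals, stood at 211.6, 163, 141.7 and 198.2 CPM in WT and at 127.6, 188.4, 249.7 and 201 CPM in dKO. Both its lowest and its highest library were dKO libraries, and the fold change was 0.10 (SE 0.20). It was 0.25 without dKO replicate 1 and -0.05 without dKO replicate 3. Cdk4, its kinase partner, stood at 66.7, 70.7, 56.5 and 65.0 CPM in WT and at 66.7, 64.8, 77.6 and 64.6 CPM in dKO, with a fold change of 0.08 (SE 0.09). The E-type cyclins of the entry into S phase were scarce. Ccne1 ranged from 0.284 to 1.18 CPM in WT and from 0.531 to 1.16 CPM in dKO. Ccne2 ranged from 1.34 to 1.93 CPM and from 1.68 to 2.54 CPM, and their log2 fold changes were 0.37 (SE 0.45) and 0.32 (SE 0.24).

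The genes that drive entry into mitosis were low in every kidney, and 4 of the 8 tested had a fold change above 0. Cdk1, the mitotic kinase, stood at 1.39, 1.82, 1.59 and 1.87 CPM in WT and at 1.81, 2.20, 2.82 and 1.54 CPM in dKO (log2 fold change 0.33, SE 0.24). Ccnb2, 1 of its cyclins, stood at 1.23, 1.02, 1.87 and 2.21 CPM in WT and at 1.33, 1.56, 2.38 and 1.60 CPM in dKO (0.13, SE 0.31), and the fold change was -0.08 without dKO replicate 3. A processed pseudogene, Ccnb2-ps, had 1.98 CPM in WT and 1.59 CPM in dKO, so reads of the cyclin may have been shared with it. Aurka, the kinase of the spindle poles, ranged from 1.07 to 2.14 CPM in WT and from 1.33 to 2.58 CPM in dKO (0.42, SE 0.30). Pbk, a mitotic kinase, stood at 1.17 to 1.76 CPM in WT and at 1.15, 1.04, 2.98 and 1.32 CPM in dKO (0.19, SE 0.36). For Pbk a single dKO library, replicate 3, lay far above the other 7, and without it the log2 fold change was -0.30. Cdc25c, the phosphatase that activates the mitotic kinase, was too low to test, at 0.0535 to 0.415 CPM over the 8 libraries.

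Bub1b, which encodes the checkpoint kinase-like protein BUBR1, had the largest fold change of the members other than Hjurp. It lies on chromosome 2 from 118598211 to 118641591. It stood at 0.501, 0.642, 1.04 and 0.851 CPM in WT and at 1.55, 1.04, 2.09 and 1.38 CPM in dKO. The groups did not overlap, though the highest WT and the lowest dKO library were both at 1.04 CPM. The log2 fold change of 1.02 (SE 0.32) did not pass the test (adjusted p = 0.137, edgeR's quasi-likelihood test), and in none of 18 alternatives did it. Its partner Bub1 was too low to test, at 0.334 to 0.553 CPM in WT and 0.165 to 0.846 CPM in dKO.

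The rest of the checkpoint and of the anaphase-promoting complex, which ends mitosis by marking proteins for destruction, gave no call. Cdc20, its activator, stood at 2.17, 3.37, 3.11 and 3.46 CPM in WT and at 2.48, 1.79, 5.20 and 4.35 CPM in dKO (log2 fold change 0.20, SE 0.32), and without dKO replicate 3 the fold change was -0.08. Ube2c, its ubiquitin-conjugating enzyme, ranged from 0.501 to 2.14 CPM in WT and from 0.936 to 2.70 CPM in dKO (0.55, SE 0.44). Cdca3, a trigger of mitotic entry, ranged from 2.23 to 2.89 CPM in WT and from 1.99 to 3.87 CPM in dKO (0.31, SE 0.24). The passenger genes Birc5 and Cdca8, which correct faulty attachments at the centromere, had log2 fold changes of -0.04 and 0.18, and Mad2l1, the checkpoint effector, had 0.25.

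Of the 6 spindle and cytokinesis members, 5 had a fold change above 0 and none was called with all libraries. Nusap1, which bundles spindle microtubules, lies on chromosome 2 from 119618298 to 119651244. It stood at 2.06, 2.73, 2.97 and 3.01 CPM in WT and at 1.81, 5.26, 4.83 and 4.46 CPM in dKO. Replicate 1 of dKO was the lowest of all 8 libraries and the other 3 dKO libraries were the highest. With all libraries the log2 fold change was 0.60 (SE 0.31, adjusted p = 0.366), and without dKO replicate 1 it was 0.85 (SE 0.19, adjusted p = 0.0313, edgeR's quasi-likelihood test). This was the only call gained by a member in 18 alternatives, and without that library 3.9% of all tested genes were called. Without replicates 1 and 4 together the smallest adjusted p of any member other than Hjurp was 0.0540. Nusap1 overlaps Oip5 on the other strand, which had 1.09 CPM in WT and 0.876 CPM in dKO, and the sources do not say whether counting used the strand. Kif23, the motor of the midzone, stood at 4.51, 5.67, 7.26 and 4.82 CPM in WT and at 11.5, 5.95, 5.36 and 6.94 CPM in dKO. Its fold change of 0.42 (SE 0.26) came with a single high library, dKO replicate 1, where Nusap1 was lowest, and without that library it was 0.13.

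Of the genes of DNA replication and nucleotide supply, 8 of 10 had a fold change above 0. At an unadjusted p under 0.05 there were 6 of the 10, 4 higher and 2 lower, where 9.36% and 7.4% of all tested genes were, and none was called. The subunits of the MCM helicase, which form 1 ring, did not share a direction. Mcm2, Mcm3, Mcm4 and Mcm5 had log2 fold changes of 0.17, 0.39, 0.23 and 0.43, with SEs of 0.10 to 0.17. Mcm6 and Mcm7 had -0.94 (SE 0.35) and -0.25 (SE 0.11).

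Mcm6 lies on chromosome 1 from 128331590 to 128359664, minus strand. It stood at 25.2, 15.6, 24.2 and 16.0 CPM in WT and at 8.23, 14.5, 4.75 and 15.1 CPM in dKO. The dKO values were all below the WT values, but replicates 2 and 4 of dKO were close to the lower pair of WT libraries, and the fold change did not pass the test (adjusted p = 0.229, edgeR's quasi-likelihood test). Mcm7 stood at 24.9, 24.2, 23.8 and 22.5 CPM in WT and at 16.3, 20.4, 22.4 and 21.4 CPM in dKO. It overlaps Cops6 on the other strand, which had 99.6 CPM in WT and 93.4 CPM in dKO.

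Rrm2, the regulated subunit of ribonucleotide reductase, lies on chromosome 12 from 24708241 to 24714146. It stood at 4.01, 4.49, 5.11 and 6.36 CPM in WT and at 7.66, 5.55, 11.6 and 7.98 CPM in dKO. Only dKO replicate 2 fell within the WT range, and the log2 fold change of 0.72 (SE 0.23) did not pass the test (adjusted p = 0.151, edgeR's quasi-likelihood test). Its partner Rrm1 had 0.24 (SE 0.11). Pcna, the sliding clamp, stood at 29.3, 35.0, 30.5 and 32.7 CPM in WT and at 37.7, 33.8, 36.4 and 31.2 CPM in dKO (0.13, SE 0.09). Summed over the members of replication and nucleotide supply, the level was 136.7 ± 1.90 CPM in WT (SD, n = 4) and 138.5 ± 4.31 CPM in dKO (SD, n = 4). Opposite changes are pooled in this sum. Mean Mcm6 went from 20.3 CPM in WT to 10.7 CPM in dKO and Mcm7 from 23.9 to 20.1 CPM, whereas the other 8 means were higher in dKO.

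A list of 26 further genes of S phase had 25 tested members and 1 call. Mcm10, which helps the helicase to start a replication fork, was lower in dKO. It stood at 11.1, 11.3, 8.15 and 10.8 CPM in WT and at 2.88, 6.35, 5.52 and 5.50 CPM in dKO. The groups did not overlap, and the gene fell by 1.04 on the log2 scale (SE 0.23, adjusted p = 0.0453, edgeR's quasi-likelihood test). That call was kept in 10 of 18 alternatives, the adjusted p ranging from 0.000797 to 0.131, and the fold change stayed below 0 in all 18. It was lost without dKO replicate 4 (adjusted p = 0.0706), without dKO replicate 3 (0.0763) and without each WT library in turn (0.0721 to 0.131). The median of the list was 0.06, with 16 above 0 and 9 below.

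The CDK inhibitors hold cells out of the cycle. Cdkn1a, which encodes p21 and answers p53 among other signals, lies on chromosome 17 from 29090976 to 29100727. It stood at 3.01, 6.31, 7.53 and 5.33 CPM in WT and at 20.7, 6.87, 6.93 and 10.2 CPM in dKO. The 2 highest libraries were dKO replicates 1 and 4, the libraries that stood apart from their group, and the other 2 dKO libraries lay within the WT range. The log2 fold change of 1.02 (SE 0.41) did not pass the test (adjusted p = 0.249, edgeR's quasi-likelihood test), and without dKO replicate 1 it was 0.53. Without replicates 1 and 4 it was 0.32. Cdkn1b stood at 49.9, 45.7, 49.5 and 51.9 CPM in WT and at 53.3, 51.3, 49.3 and 58.1 CPM in dKO (0.11, SE 0.08). Cdkn1c stood at 16.4, 25.5, 14.9 and 16.0 CPM in WT and at 25.8, 18.4, 21.9 and 16.2 CPM in dKO (0.18, SE 0.20), and without dKO replicate 1 its fold change was 0.05. Of 15 listed targets and partners of p53, 14 were tested, none was called by edgeR or DESeq2, and 2 had an unadjusted p under 0.05. Their median log2 fold change was 0.02.

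The transcription factors E2f1 and Foxm1 switch on the genes of S phase and of mitosis. E2f1 stood at 3.79, 4.23, 4.63 and 3.40 CPM in WT and at 5.18, 4.97, 5.28 and 4.35 CPM in dKO (0.30, SE 0.16). Foxm1 stood at 1.61, 1.93, 2.90 and 2.33 CPM in WT and at 2.52, 3.52, 4.07 and 2.48 CPM in dKO (0.53, SE 0.25). In each, dKO replicate 4 was the lowest dKO library and lay within the WT range, as did dKO replicate 1 for Foxm1. Of 21 listed genes that control G1, among them the retinoblastoma family and further E2F genes, 19 were tested and none was called by edgeR's quasi-likelihood test. At an unadjusted p under 0.05 there were 3, Rb1, E2f2 and E2f5. DESeq2, which called 6.1% of all tested genes, called the latter pair. E2f2, an activator, stood at 2.90 to 4.76 CPM in WT and at 6.22 to 8.72 CPM in dKO (0.78, SE 0.19, adjusted p = 0.0653 in edgeR's test). E2f5, which acts in repressor complexes, stood at 29.8 to 34.0 CPM in WT and at 25.4 to 27.1 CPM in dKO (-0.27, SE 0.08, adjusted p = 0.104 in edgeR's test). Both were named after their values were seen.

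The spread of the members among the libraries had a pattern of its own. For 22 of the 49 members other than Hjurp (44.9%) the highest of the 8 libraries was dKO replicate 3, where 8.92% of all tested genes had their highest level. These were 6 of the 8 mitotic entry genes, 4 of the 7 checkpoint genes, 5 of the 10 replication genes, 3 of the 6 G1 genes, both transcription factors, 1 centromere gene and 1 spindle gene. The proliferation markers Mki67 and Top2a were highest in WT replicate 3 instead. Hjurp itself was at its lowest dKO level, 30.7 CPM, in dKO replicate 3.

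**Figure D3:**
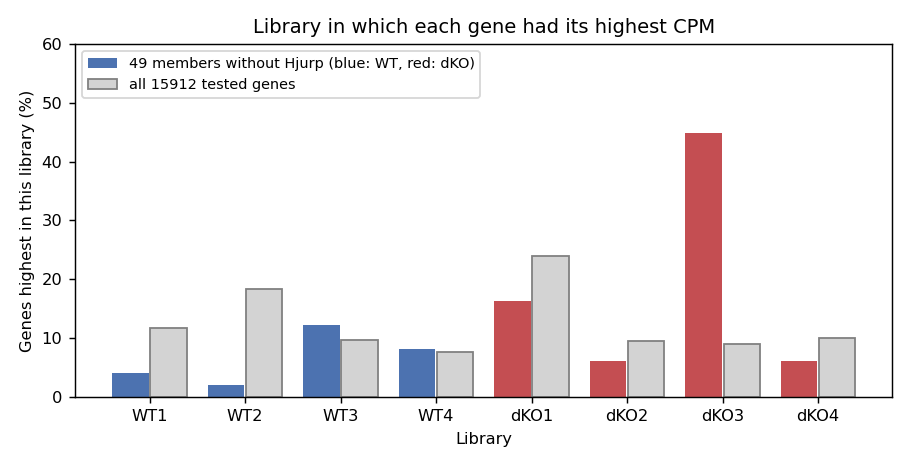
Share of genes with their highest CPM in each library, for the 49 tested members other than Hjurp (coloured bars) and for all tested genes (grey bars). The bar of dKO replicate 3 is at 44.9% for the members and 8.92% for all genes.

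The median deviation of the 49 members from their WT mean was 0.33 on the log2 scale in dKO replicate 3. It was 0.05 to 0.10 in dKO replicates 1, 2 and 4, and -0.12 to 0.08 among the WT libraries. Summed over the mitotic members, dKO replicate 3 reached 74.9 CPM, where the remaining dKO libraries had 53.4 to 59.3 CPM and WT had 44.1 to 61.8 CPM. Without dKO replicate 3, 31 of the 49 members had a fold change above 0, with a median of 0.11, against 37 and 0.17 with all libraries. This library had the most reads, 24973213. Its summed level of 8 macrophage markers, 113.3 CPM, lay within the 110.1 to 130.6 CPM of the other libraries, and that of 10 tubular injury markers, 165 CPM, was below the 168.6 to 218.7 CPM of the others. Its 7 lymphocyte markers summed to 3.02 CPM, within 1.87 to 4.79 CPM. Its 6 endothelial markers summed to 388.4 CPM, above the 282.5 to 349.4 CPM of WT. Only dKO replicate 1, at 457.2 CPM, had a higher endothelial sum. The part of depth and of other cells in the pattern was not tested.

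**Figure D4:**
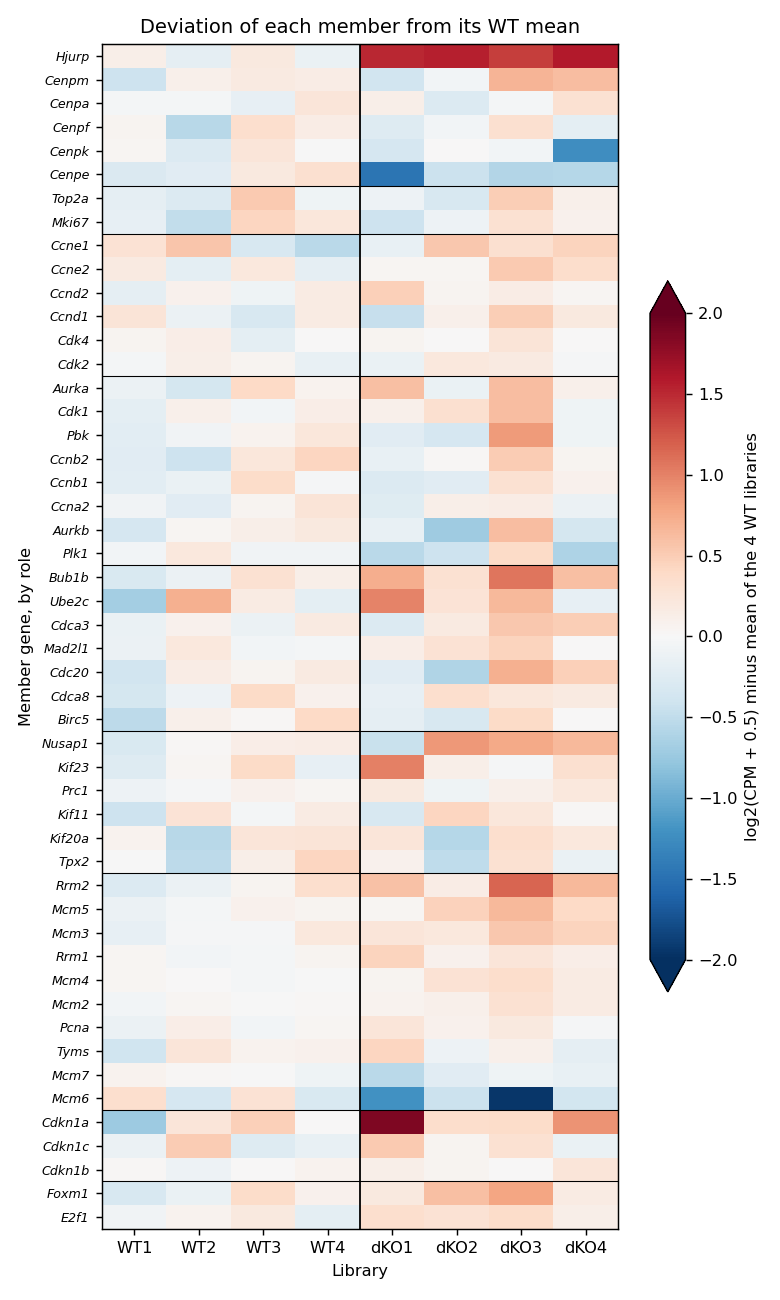
Log2 deviation of each tested member from its mean over the 4 WT libraries, by library (columns, WT1 to dKO4) and role (rows split by lines). Red is above and blue below the WT mean. Hjurp is red in all 4 dKO libraries, and in dKO3 red runs through most roles, whereas Mcm6, at 4.75 CPM there, is dark blue.

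Levels of the members in WT spanned a wide range per length. Ccnd1 was the highest at 37.9 ± 6.70 FPKM (SD, n = 4), followed by Cdk4 at 19.9 ± 1.86, Pcna at 13.3 ± 1.08, Cdkn1b at 10.8 ± 0.54 and Cdkn1c at 8.91 ± 2.44 FPKM. The ranges of Ccnd1, Cdk4 and Pcna did not touch each other. The median member stood at 0.667 FPKM, against 4.21 FPKM for all tested genes, and 31 of the 52 members were under 1 FPKM. Hjurp was the 16th highest at 1.39 FPKM, next to Ccnd2 at 1.43 ± 0.16 and E2f1 at 1.27 ± 0.17 FPKM, from which it could not be told apart. It was higher than Cenpa, at 0.594 ± 0.084 FPKM, and than Mki67, at 0.518 ± 0.16 FPKM. Of the 51 pairs of neighbours in this order, 44 had overlapping ranges. In dKO Hjurp made up 2.14% to 2.91% of the summed FPKM of the 52 members, against 0.878% to 1.25% in WT. This share also restates the difference by which Hjurp was chosen.

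Low levels limit what the comparison could show. The SEs of the members ran from 0.08 for Cdkn1b to 0.60 for Cenpk, with a median of 0.25 on the log2 scale. Of the 52 members, 16 overlap another listed gene on the opposite strand. For Cdc20 that gene is Elovl1, at 102.7 CPM in WT, for Ccne2 it is Ints8, at 22.2 CPM, and for Cdk4 it is Tspan31, at 53.1 CPM. Reads of such pairs cannot be told apart where counting ignores the strand.

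The neighbourhood of Hjurp on chromosome 1 was read in the same fit. Of 26 listed genes within 500 kb of it, 11 were tested and 2 were called, Ugt1a10 and Ugt1a9, and 8 of the 11 had an unadjusted p under 0.05, where 16.8% of all tested genes did. Over all of chromosome 1, 2.55% of the tested genes were called. Ugt1a10 and Ugt1a9 encode glucuronosyltransferases that make lipid-soluble compounds excretable, and they belong to a gene cluster whose members share their last exons, so their reads are uncertain. Ugt1a10 had 3 to 8 reads per WT library, and 1554, 327, 1051 and 232 reads in dKO replicates 1 to 4. Ugt1a9 had no read in WT and 11 to 20 reads in dKO, so a fitted fold change is no measure of its size.

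The adjusted p-values were 0.00556 for Ugt1a10 and 0.00902 for Ugt1a9 (edgeR's quasi-likelihood test), and limma-voom did not call the former (0.0656). Of their neighbours in the cluster, Ugt1a6a and Ugt1a6b had log2 fold changes of 1.08 (SE 0.29) and 0.92 (SE 0.25), and Ugt1a7c, the most abundant at 226.7 CPM in WT, had -1.06 (SE 0.38). None of these passed the test. The cluster ends 42468 bases from Hjurp.

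The closest genes to Hjurp did not pass the test or had almost no reads. Mroh2a ends 181 bases from the 3′ end of Hjurp on the other strand. It stood at 2.28 to 2.35 CPM in WT and at 3.27, 3.70, 2.58 and 4.24 CPM in dKO, which is 0.57 on the log2 scale (SE 0.19, adjusted p = 0.174, edgeR's quasi-likelihood test). Trpm8, the cold-sensing channel, starts 27 bases from Hjurp's start in the opposite direction. It had at most 1 read in any library. Spp2, a secreted phosphoprotein, had 0.75 (SE 0.18, adjusted p = 0.0715), and Arl4c, Usp40, Dgkd and Atg16l1 had 0.17, 0.15, -0.35 and -0.07. That of Arl4c was -0.03 without dKO replicate 1. Within 1000 kb, 17 genes were tested and the same count of 2 was called.

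**Figure D5:**
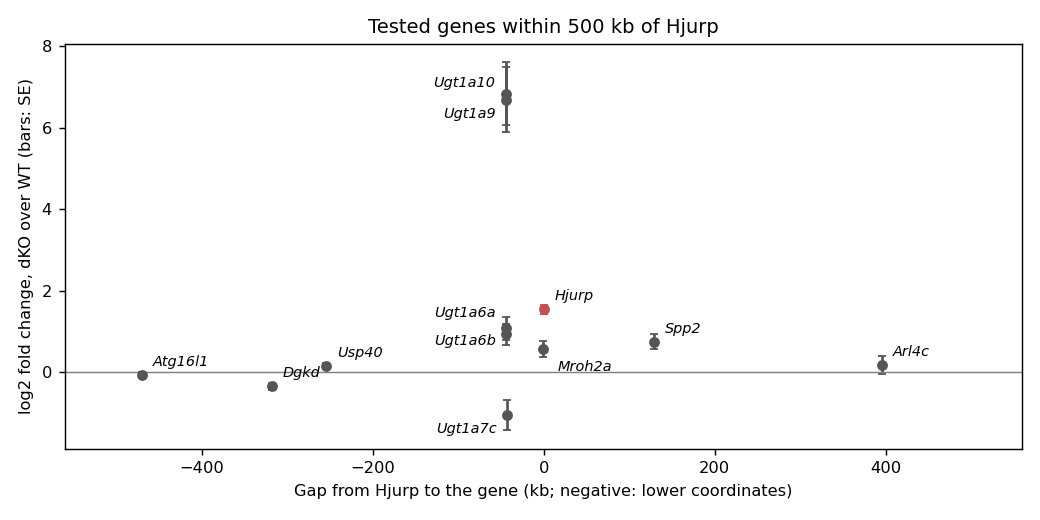
Log2 fold change of dKO over WT (SE as bars) for Hjurp (red) and the 11 tested genes within 500 kb (grey), against the gap to Hjurp in kb. Ugt1a10 and Ugt1a9 are near the top at 6.84 and 6.69, Hjurp is at 1.54, and the other genes lie between -1.06 and 1.08.

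The members were not gathered near the engineered genes. Chromosome 2, which carries Tsc1, holds 8 members, among them Bub1b, Nusap1, E2f1 and Pcna, and none lies within 20 Mb of Tsc1. None lies within 20 Mb of Foxi1 on chromosome 11 either. Cenpm lies 17.35 Mb from Aqp2, whose promoter drives the Cre, though the labels do not say where in the genome the Cre sits. On chromosome 2, 4.68% of the tested genes were called, the highest share among the autosomes and the X. Distances in Mb were taken for the members only. Of the called genes outside them, Mcm10 lies on chromosome 2 from 4989714. Havcr1 lies on chromosome 11 from 46735080 to 46779578, within 20 Mb of Foxi1, which lies from 34204338 to 34208089.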

How the data were processed

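Whole-kidney poly(A) RNA of 4 WT and 4 dKO samples was analysed. Replicate numbers of dKO follow accession order and only name the samples. Per the labels, the authors aligned reads with HISAT2 2.0.4 and made counts per gene with HTSeq 0.9.1. The build was not given in the sources used here. The GRCm38 annotation holds 26096 of 26893 genes, and 50 of the 52 members, with the same start, end and strand (GENCODE). The deposited counts are raw. The deposited FPKM values were scaled by the authors for gene length and library size and served for levels between genes. The deposited table also holds the authors' own test results (fold changes with their p-values), which were not used, and 8 further scaled signal columns, 1 per sample, which were not used. In 23 entries a symbol had become a date and was restored by identifier.

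Low genes were removed with edgeR 4.0.16 (filterByExpr, at least 10 reads, and 15 in total), scaled by TMM and compared by its robust quasi-likelihood test, two-sided, with Benjamini-Hochberg adjustment over 15912 genes in R 4.3.3. The SE is the size of the log2 fold change divided by the square root of F. The labels give no batch, and they do not state that samples are separate animals, so the p-values cover only differences between the samples, which may be technical. The members, their roles and the further gene lists were chosen with earlier results of these data known. Values by library are given for Hjurp, in each role for the 2 members with the largest fold change and the 2 with the highest FPKM, for Mki67, Top2a, Pcna, Cdkn1a, Ccnd1, E2f1 and Foxm1, for called genes of the other lists, and for tested genes within 500 kb of Hjurp. Deviations from the WT mean were taken on log2 of CPM plus 0.5. Motifs were searched in RefSeq promoters. Alternatives were DESeq2 1.42.0, limma-voom (limma 3.58.1), RLE or upper-quartile scaling, no filter, at least 1 CPM in 4 libraries, non-robust estimation, log2 FPKM plus 1 or 0.1, each library left out, and dKO replicates 1 and 4 left out together. The fit was tested on simulated data. A few genes of the further lists are not reported here by name, though they stay in every test and count.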

Additional observations from a re-analysis of the deposited data

Results flagged for a closer look

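In 3 of 56 groups of 4 libraries, 1 library stood apart from the others by most of the group's range, and chance would mark about 1 group in 20. Cdk4 was at 77.6 CPM in dKO replicate 3, where the nearest dKO library was at 66.7 CPM. Pbk was at 2.98 CPM in dKO replicate 3, where the nearest was at 1.32 CPM. Cdkn1c was at 25.5 CPM in WT replicate 2, where the nearest WT library was at 16.4 CPM. For both genes of dKO replicate 3, this is also the library in which 22 of the 49 members other than Hjurp were highest.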

How the results depend on the processing

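Hjurp was called in all 18 alternatives, with log2 fold changes from 1.07 (FPKM plus 1) to 1.61. The number of members called was 1 in 17 of them and 2 without dKO replicate 1, which added Nusap1, so the range over the libraries left out was 1 to 2. The median log2 fold change of the members stayed above 0 in all of them, from 0.0799 to 0.2133. In the further lists 1 gene was called, against 3 with DESeq2, 2 without a filter on low counts, 0 with non-robust estimation, 0 with FPKM plus 0.1 and 0 to 1 with each library left out. The count of members highest in dKO replicate 3 was 22 or 23 under other scalings, and shares of promoters over 150 bases were 75.0% for CCAAT, 32.5% for CHR and 12.5% for E2F. No paired analysis was possible because the labels number the dKO samples apart from WT, and the dKO numbers used here only name samples. Log2 fold changes as large as 1.02 (Bub1b, SE 0.32) did not pass the test, so changes of that size in genes as low as most members, 0.667 FPKM in the WT median, could be missed.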
